A study of Mus musculus with 12 samples.

Results

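Cholesterol and fatty acid synthesis was followed through 33 genes, taken by symbol: 18 enzymes of the mevalonate and sterol pathway, 5 genes of SREBP control and sterol transport, and 10 enzymes that make, desaturate or elongate fatty acids. All 33 are listed in each of the 4 deposited tables, which hold 16516 gene symbols between them. The RNA came from mouse bone marrow-derived macrophages in 4 groups of 3 libraries: MGMT KO under DMXAA, MGMT KO under DMSO, WT under DMXAA and WT under DMSO, all after 24 h. The labels write the WT genotype as WTfl/fl, which by convention names a floxed allele, and they give no Cre driver, strain, age, sex or number of mice per library. DMXAA is a small molecule that activates mouse STING, an adaptor protein of innate immune sensing, and DMSO is its vehicle. The series text gives a DMXAA concentration of 10 mg/ml. Nothing in the labels says that the 3 libraries of a group came from separate mice, so p-values measure only the spread between these libraries.

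Sterol enzymes turn acetyl-CoA into mevalonate, mevalonate into squalene, and squalene by way of lanosterol into cholesterol. Fatty acid enzymes use the same acetyl-CoA to build palmitate, which elongases lengthen and desaturases give double bonds. The transcription factors encoded by Srebf2 and Srebf1 switch on both sets of genes when sterols are low: SCAP carries them to the Golgi for cleavage, and INSIG proteins hold SCAP back when sterols are high. In macrophages these pathways are known to be remodelled by interferon, and the interferon-inducible enzyme CH25H makes an oxysterol that blocks SREBP cleavage.

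Sequencing depth over listed genes was 79.5 to 98.1 M (mega) reads per library, and the 3 KO libraries under DMXAA, at 94.1 to 98.1 M, lay above all 9 others. Mgmt was lower in KO than in WT but not absent, with 51, 61 and 33 reads in KO libraries against 107, 85 and 99 in WT libraries under DMXAA, and 121, 141 and 162 in KO libraries against 263, 245 and 243 in WT libraries under DMSO. All 10 macrophage markers had reads in every group. Of 7 adipocyte markers, a cell type rich in several of the enzymes, Adipoq, Plin1, Lep, Cfd and Pck1 were at 0 in all libraries, and the summed normalized count of the list did not exceed 13.7. A normalized count is the deposited value, a gene's reads divided by a factor for its library, and KO and WT libraries were scaled in separate tables for the DMXAA responses. A gene was called when its Benjamini-Hochberg adjusted p from limma, over all tested genes, was below 0.05. Each log2 value is DMXAA over DMSO or KO over WT with its standard error (SE), and n is 3 libraries per group.

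In reads per kilobase of exon per M reads, the members spanned more than 2 orders of magnitude in WT libraries under DMSO. The length is every annotated exon base of a gene over all its transcripts, such as 10787 bases for Lss. The order between genes depends on that choice and is approximate. Acly, which makes acetyl-CoA from citrate, was highest at 38.2 ± 1.15 (SD, n = 3), followed by Fdft1 at 22.3 ± 1.91 and Srebf1 at 20.8 ± 1.14. Lowest were Hsd17b7 at 0.392 ± 0.0508, Elovl6 at 0.24 ± 0.026 and Scd1 at 0.117 ± 0.0234. Acly was also the highest member in the other groups, at 28.8 ± 0.392 in KO under DMXAA, 37.4 ± 1.95 in KO under DMSO and 30.3 ± 0.829 in WT under DMXAA. Of the 32 pairs of neighbours in the order of WT libraries under DMSO, 19 had overlapping libraries, so their order is not settled by these data. The plot of levels by group shows where a member stood and how far its groups lay apart on this scale. Because levels are divided by total reads, gaps between treatments include a shift of all genes. With libraries set to the same total, the median log2 change of all genes under DMXAA was -0.39 in KO and -0.32 in WT. The lower level of Acly under DMXAA is to be read with that shift.

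**Figure D1:**
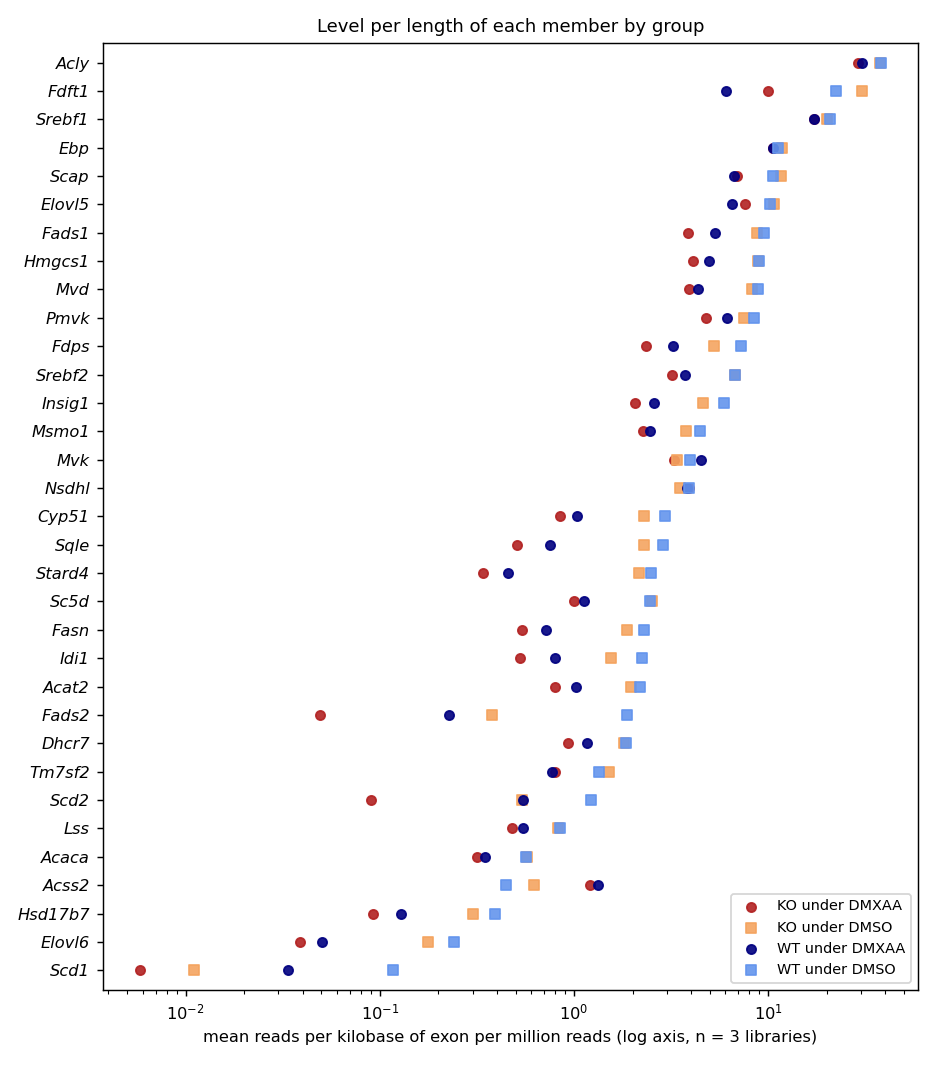
Mean level of each of the 33 members in reads per kilobase of exon per M reads (log axis, n = 3 libraries), ordered by WT under DMSO. Circles are DMXAA and squares DMSO. Levels are divided by total reads, so gaps between treatments include the downward shift of all genes under DMXAA on that scale. Acly leads at 38.2 in WT under DMSO and Scd1 is lowest at 0.117. Among others, Fads2, Stard4, Elovl6 and Sqle show wide gaps between treatments in both genotypes. Scd2 has a wide gap in KO and a smaller one in WT, while Acss2 lies higher under DMXAA.

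DMXAA lowered most of these genes in both genotypes. In KO, 25 of 32 tested members fell and 4 rose, where 32.9% of all 12704 tested genes fell and 33.7% rose (66.6% called in all). In WT, 26 of 33 fell and 4 rose, where 31.1% of 12752 tested genes fell and 31.7% rose (62.8% called). The median log2 change was -0.71 over the members and 0.00 over all genes in KO, and -0.55 and 0.00 in WT. The 3 libraries under DMXAA lay below all 3 under DMSO for 25 members in KO (35.2% of all genes) and for 26 in WT (34.0%). Among called members the libraries of the treatments overlapped for Srebf1 in KO and for Mvk in WT. These are bulk samples, in which fewer cells that make a transcript and less of it per cell cannot be told apart. Of 10 proliferation genes 8 fell and 1 rose in KO and 9 fell in WT. Of 10 macrophage markers 8 fell and 2 rose in KO, and 5 fell and 2 rose in WT. Of 6 dendritic cell markers 2 passed the filter on low values, Xcr1 and Clec9a, and both rose in each genotype; the list's summed normalized count was 472 to 577 under DMXAA against 44.5 to 55.9 under DMSO in KO, and 485 to 489 under DMXAA against 19.8 to 74.2 under DMSO in WT. Cd209a and Siglech were at 0 in every library under DMXAA. Of the 8 stromal markers 4 of 6 tested fell in KO, with sums of 42.4 to 79.4 under DMXAA against 123 to 533 under DMSO. In WT 1 of 2 tested rose, with sums of 13.7 to 55.1 against 36.2 to 78.3. Of the 9 neutrophil markers 3 of 4 tested fell in WT, with sums of 244 to 277 under DMXAA against 488 to 690.0 under DMSO, and in KO the 1 tested was not called, with sums of 71.6 to 77.9 against 64.3 to 112. These sums were taken from tables scaled separately for each treatment. The part of these shifts in the responses of the lipid genes was not tested.

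With the filter used here, the arms differed little in their medians and more in their spread. Among the 18 sterol enzymes 15 fell and 2 rose in KO, with a median log2 change of -0.71 and a range of -1.79 to 0.55, and 14 fell and 3 rose in WT, with a median of -0.64 and a range of -1.60 to 0.50. Among the fatty acid enzymes 6 of 9 tested fell and 1 rose in KO, with a median of -0.80 and a range of -2.48 to 1.35, and 8 of 10 fell and 1 rose in WT, with a median of -0.69 and a range of -2.70 to 1.88. The 5 genes of SREBP control and sterol transport had 4 that fell in each genotype, with medians of -0.69 in KO and -0.54 in WT. The gap between the medians depended on the filter on low values. With no filter, the KO median was -1.04 over 10 fatty acid enzymes and -0.71 over sterol enzymes. With a filter at a mean of 50, the WT median was -0.52 over fatty acid enzymes and -0.64 over sterol enzymes. No test between the arms was made.

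**Figure D2:**
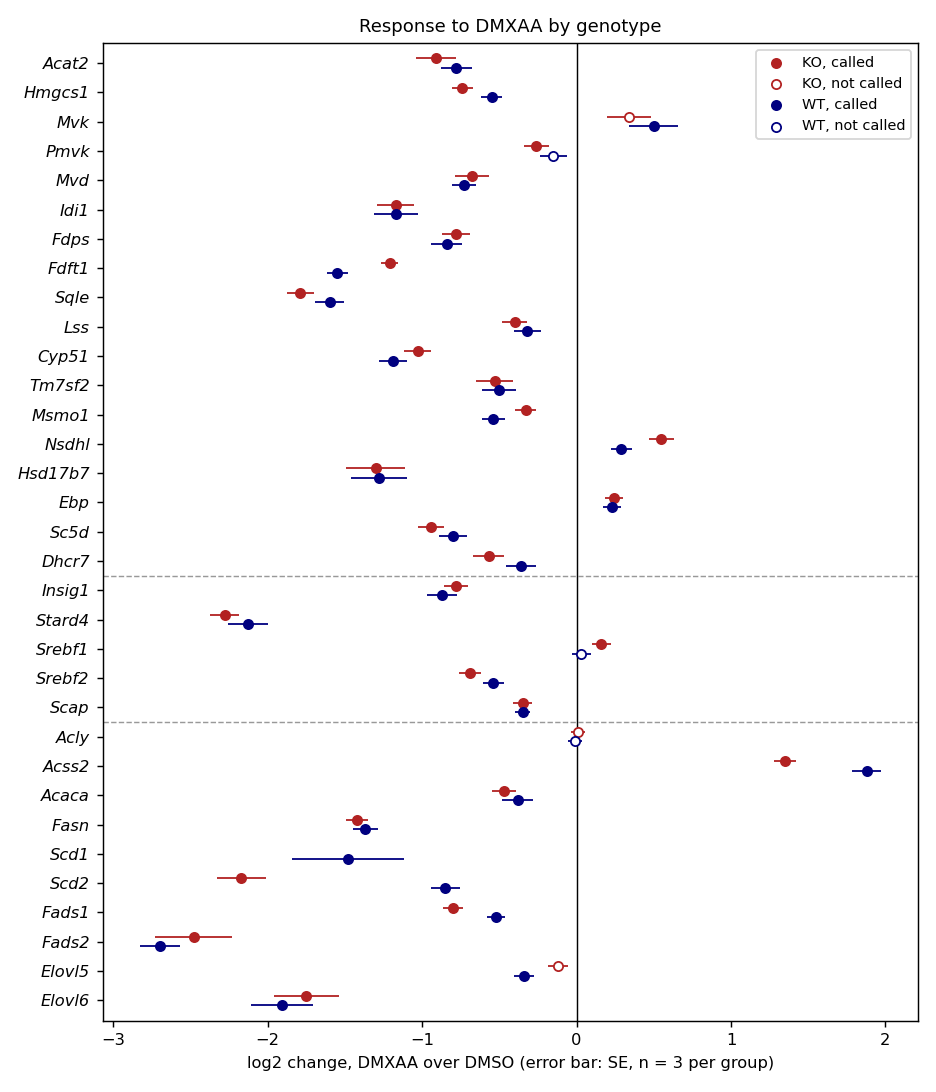
log2 change of each member under DMXAA over DMSO in KO (red) and WT (blue), with its SE (n = 3 libraries per group). Filled points were called and open points were not; dashed lines separate sterol enzymes, regulators and fatty acid enzymes. Most points lie left of 0, with Fads2 (-2.48 in KO and -2.70 in WT) and Stard4 (-2.28 and -2.13) farthest, and Acss2 lies right of 0 at 1.35 in KO and 1.88 in WT. Scd1 was not tested in KO.

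In the mevalonate segment 6 of 7 enzymes fell in KO and 5 of 7 in WT. Hmgcs1, which makes HMG-CoA, changed by -0.74 in KO and -0.55 in WT, and Acat2, the thiolase before it, by -0.91 and -0.78, all called. Acat2 has a close paralog, Acat3, which changed by -0.19 in KO (adjusted p = 0.0599) and -0.47 in WT (adjusted p = 0.00233), and how reads were divided between the pair is not stated. Idi1, the isomerase that forms the second isoprene unit (chr13:8885501-8892451, mm10), had 203, 169 and 201 in KO libraries under DMXAA, against 464, 415 and 414 in KO libraries under DMSO (log2 -1.17), and 292, 308 and 222 in WT libraries under DMXAA, against 587, 707 and 556 in WT libraries under DMSO (log2 -1.17). Its libraries did not overlap between treatments in either genotype. Mvd, the decarboxylase, changed by -0.68 in KO and -0.73 in WT, and Fdps, which makes farnesyl pyrophosphate, by -0.78 and -0.84, all called. Fdps shares 26.7% of its exon bases with Gm43738 on the same strand, which is not among the listed genes. How reads from these shared bases were assigned is not stated. Pmvk, the second kinase, fell by a smaller step in KO (log2 -0.26, SE 0.082, adjusted p = 0.018), and its value in WT of -0.15 was not called (adjusted p = 0.156).

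Mvk, mevalonate kinase (chr5:114444269-114460591), was the enzyme of this segment called higher in WT. There it had 924, 1249.6 and 1382 in WT libraries under DMXAA, against 990.0, 831 and 681 in WT libraries under DMSO (log2 0.50, SE 0.16, adjusted p = 0.0222). In KO it had 744, 934 and 1039 in KO libraries under DMXAA, against 817, 729 and 602 in KO libraries under DMSO, and was not called (log2 0.34, SE 0.14, adjusted p = 0.0551). Its libraries overlapped between the treatments in both genotypes, and the call in WT was lost when any of 4 libraries was left out in turn (WT under DMSO replicate 2 or 3, or WT under DMXAA replicate 2 or 3), with log2 values of 0.37 to 0.51. The call was also lost with libraries set to the same total (log2 0.19) or the same upper quartile (0.33).

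Sqle had the largest fall of the 18 sterol enzymes in both genotypes, except that Fdft1 fell slightly more in WT without DMSO replicate 2. Its product, squalene epoxidase, is a rate-limiting enzyme of the late pathway. The gene (chr15:59315077-59331192) had 290.3, 307 and 279.9 in KO libraries under DMXAA, against 1077, 949.8 and 1006 in KO libraries under DMSO, a 3.45-fold fall (log2 -1.79, SE 0.088, adjusted p = 3.35e-08). In WT it had 393, 392 and 446 in WT libraries under DMXAA, against 1306, 1322 and 1123 in WT libraries under DMSO, a 3.04-fold fall (log2 -1.60, SE 0.095, adjusted p = 2.58e-07). The groups were far apart in both genotypes, as the plot of single libraries shows. Fdft1, squalene synthase and the sterol enzyme of highest level per length under DMSO (chr14:63145150-63179578), had 4416, 4578 and 4190.0 in KO libraries under DMXAA, against 9686, 10038 and 10794 in KO libraries under DMSO (log2 -1.21, SE 0.056, adjusted p = 1.97e-08), and 2524, 2465 and 2561 in WT libraries under DMXAA, against 8172, 7105 and 6922 in WT libraries under DMSO (log2 -1.55, SE 0.068, adjusted p = 2.46e-08). Its exons share 774 bases, 18.3% of their length, with Ctsb on the opposite strand, which encodes the lysosomal protease cathepsin B and had 821200.0 normalized counts on average in KO under DMSO. Ctsb rose under DMXAA, by 0.49 in KO and 0.28 in WT, while Fdft1 fell. The libraries are strand-specific per the labels, the strand setting of the counting is not given in the sources used here, and the part of Ctsb reads in the Fdft1 count was not tested. Lss, which closes lanosterol, fell by less, by 0.40 in KO and by 0.32 in WT on the log2 scale. Cyp51, the lanosterol demethylase, changed by -1.03 in KO and -1.19 in WT.

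Of the later enzymes, which trim lanosterol to cholesterol, 5 fell in both genotypes. Hsd17b7, a ketosteroid reductase of low level (chr1:169949535-169969241), had 45.2, 49.0 and 53.3 in KO libraries under DMXAA, against 119, 142 and 108 in KO libraries under DMSO (log2 -1.30, SE 0.19, adjusted p = 1.39e-04), and 74.2, 57.5 and 61.3 in WT libraries under DMXAA, against 135, 168 and 169 in WT libraries under DMSO (log2 -1.28, SE 0.18, adjusted p = 1.37e-04). Sc5d, a desaturase of the sterol ring, changed by -0.94 in KO and -0.80 in WT, and Dhcr7, which makes cholesterol in the final step of one branch, by -0.57 and -0.36. Msmo1, the methylsterol oxidase, changed by -0.33 and -0.54. Tm7sf2, a sterol reductase, changed by -0.53 and -0.50. It shares 12.1% of its exon bases with Vps51 on the same strand, which rose by 0.41 in KO and 0.47 in WT, and how shared reads were assigned is not stated.

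Nsdhl and Ebp were the 2 sterol enzymes called higher in both genotypes. Nsdhl, the dehydrogenase that acts beside MSMO1 and HSD17B7 (chrX:72918557-72958514), had 1141, 1134 and 1199 in KO libraries under DMXAA, against 721, 849 and 807 in KO libraries under DMSO (log2 0.55, SE 0.08, adjusted p = 1.45e-04), and 1109.6, 1069.7 and 1031 in WT libraries under DMXAA, against 857, 901 and 863 in WT libraries under DMSO (log2 0.29, SE 0.07, adjusted p = 0.0045). Ebp, the sterol isomerase (chrX:8185329-8193512), had 2460.0, 2584 and 2633 in KO libraries under DMXAA, against 2189, 2059.9 and 2229.7 in KO libraries under DMSO (log2 0.24, SE 0.058, adjusted p = 0.00378), and 2321, 2533 and 2333 in WT libraries under DMXAA, against 2027, 2004 and 2094 in WT libraries under DMSO (log2 0.23, SE 0.061, adjusted p = 0.00778). These rises depend on the scaling: with libraries set to the same total, Nsdhl was at 0.16 in KO and -0.03 in WT and Ebp at -0.14 in KO and -0.09 in WT, and none of these values was called higher; Ebp in KO was then called lower (adjusted p = 0.0342). The call of Nsdhl in WT was also lost with the numeral of the library names as a replicate block (log2 0.26, adjusted p = 0.0773). In that block only libraries of numerals II and III have a partner in the other treatment. With the same upper quartile, Ebp at 0.08 in KO and 0.05 in WT and Nsdhl at 0.12 in WT were not called.

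**Figure D3:**
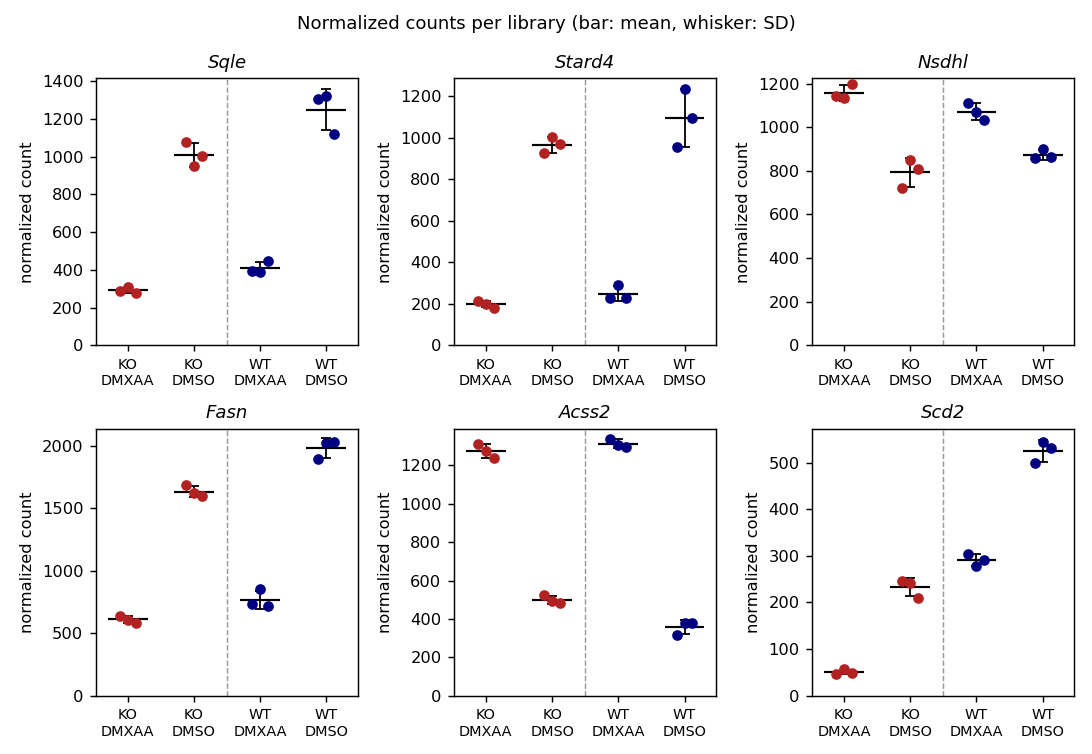
Normalized count in each library for Sqle, Stard4, Nsdhl, Fasn, Acss2 and Scd2 (y axis from 0; horizontal bar, mean; whisker, SD; n = 3). The dashed line separates KO (red) from WT (blue) libraries, which were scaled in separate tables and are not compared across it. Sqle, Stard4, Fasn and Scd2 lie lower under DMXAA in each genotype, with no library of 1 treatment within the range of the other, and Nsdhl and Acss2 lie higher.

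Stard4, a carrier that moves cholesterol between membranes and is itself an SREBP target (chr18:33199355-33213862), fell most among the regulators and carrier. It had 212, 199 and 182 in KO libraries under DMXAA, against 924, 1002 and 969 in KO libraries under DMSO, a 4.86-fold fall (log2 -2.28, SE 0.096, adjusted p = 9.47e-09), and 227, 289.5 and 230.0 in WT libraries under DMXAA, against 955, 1232 and 1095 in WT libraries under DMSO, a 4.39-fold fall (log2 -2.13, SE 0.13, adjusted p = 2.72e-07). Insig1, the sterol-regulated anchor of SCAP (chr5:28071363-28078662), had 674, 612 and 699 in KO libraries under DMXAA, against 1163, 1099 and 1138 in KO libraries under DMSO (log2 -0.78, SE 0.078, adjusted p = 8.21e-06), and 744, 841 and 763 in WT libraries under DMXAA, against 1277, 1628 and 1416 in WT libraries under DMSO (log2 -0.87, SE 0.098, adjusted p = 2.84e-05). Neither gene had overlapping libraries between the treatments.

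Srebf2, whose product drives mainly sterol genes (chr15:82147181-82205379), had 2558, 2313 and 2329 in KO libraries under DMXAA, against 3913, 3568 and 4127 in KO libraries under DMSO (log2 -0.69, SE 0.069, adjusted p = 8.15e-06), and 2428, 2687 and 2782 in WT libraries under DMXAA, against 3662, 4045 and 3731 in WT libraries under DMSO (log2 -0.54, SE 0.069, adjusted p = 7.58e-05). Scap changed by -0.35 in KO and -0.35 in WT, both called. Srebf1, whose product drives mainly fatty acid genes (chr11:60199089-60222581), stood apart from Srebf2. It had 10508, 10581 and 9134 in KO libraries under DMXAA, against 8879.5, 8717 and 9454 in KO libraries under DMSO, with overlapping libraries and a call at the threshold (log2 0.16, SE 0.063, adjusted p = 0.0473). That call was lost in the edgeR test of the recovered reads, with the replicate number as a block (adjusted p = 0.0676), with no filter on low values and without any of 4 libraries in turn (KO under DMSO replicate 1 or 2, or KO under DMXAA replicate 1 or 2), and its sign turned to -0.23 with libraries set to the same total and to -0.01 with the same upper quartile. In WT Srebf1 had 9244, 8954 and 10079.8 in WT libraries under DMXAA, against 9795, 9140.1 and 8729 in WT libraries under DMSO and was not called (log2 0.03, SE 0.062, adjusted p = 0.675).

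The 2 enzymes that supply acetyl-CoA behaved differently from each other. Acly had 15694, 15643 and 16070.3 in KO libraries under DMXAA, against 16319, 15755 and 14981 in KO libraries under DMSO (log2 0.01), and 15977, 15741 and 15337 in WT libraries under DMXAA, against 15422, 16115 and 15981 in WT libraries under DMSO (log2 -0.01), and was called in neither genotype. With libraries set to the same total, Acly was called lower in both, together with every other tested fatty acid enzyme except Acss2. Acss2, which makes acetyl-CoA from acetate (chr2:155517948-155585724), rose in both. It had 1310.5, 1274 and 1240.5 in KO libraries under DMXAA, against 523, 492 and 484 in KO libraries under DMSO, a 2.55-fold rise (log2 1.35, SE 0.073, adjusted p = 7.21e-08), and 1340.0, 1308 and 1294 in WT libraries under DMXAA, against 314, 381 and 379 in WT libraries under DMSO, a 3.68-fold rise (log2 1.88, SE 0.094, adjusted p = 7.11e-08). No other member of the 33 rose by more than 0.55 on the log2 scale.

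The enzymes that build palmitate fell. Fasn, fatty acid synthase (chr11:120805846-120824547), had 641, 609 and 582 in KO libraries under DMXAA, against 1684, 1617 and 1595 in KO libraries under DMSO, a 2.67-fold fall (log2 -1.42, SE 0.07, adjusted p = 3.54e-08), and 734, 849 and 720.0 in WT libraries under DMXAA, against 1891, 2021 and 2032 in WT libraries under DMSO, a 2.58-fold fall (log2 -1.37, SE 0.081, adjusted p = 2.52e-07). Acaca, the acetyl-CoA carboxylase that supplies its malonyl-CoA, changed by -0.47 in KO and -0.38 in WT, both called. Elovl6, which elongates palmitate (chr3:129532355-129638495), had 25.2, 25.0 and 27.8 in KO libraries under DMXAA, against 90.4, 94.2 and 84.8 in KO libraries under DMSO (log2 -1.75, SE 0.21, adjusted p = 3.72e-05), and 33.7, 28.7 and 32.4 in WT libraries under DMXAA, against 115, 112 and 137 in WT libraries under DMSO (log2 -1.91, SE 0.2, adjusted p = 1.62e-05). Its counts under DMXAA were low, which limits the precision of the fold.

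Fads2 had the largest fall of the members tested in each genotype, except that with a pseudocount of 5 Stard4 (log2 -2.26) fell slightly more than Fads2 (-2.24) in KO. It encodes the first desaturase of the polyunsaturated path (chr19:10062765-10101746). In KO it had 20.0, 14.2 and 16.7 in KO libraries under DMXAA, against 109, 92.5 and 93.9 in KO libraries under DMSO, a 5.58-fold fall (log2 -2.48, SE 0.25, adjusted p = 7.87e-06). In WT it had 64.1, 82.0 and 75.1 in WT libraries under DMXAA, against 494, 501 and 454 in WT libraries under DMSO, a 6.51-fold fall (log2 -2.70, SE 0.13, adjusted p = 7.11e-08). Fads1, the next desaturase of that path and the neighbour of Fads2 on chromosome 19, changed by -0.80 in KO and -0.52 in WT. Elovl5, the elongase between the pair, changed by -0.34 in WT, which was called, and by -0.12 in KO, which was not (adjusted p = 0.129).

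Scd2, a stearoyl-CoA desaturase that makes monounsaturated fatty acids (chr19:44293674-44306864), had 47.3, 56.6 and 48.9 in KO libraries under DMXAA, against 246, 242 and 209.9 in KO libraries under DMSO, a 4.5-fold fall (log2 -2.17, SE 0.16, adjusted p = 8.21e-07), and 304, 278 and 290.1 in WT libraries under DMXAA, against 499.6, 544 and 531 in WT libraries under DMSO, a 1.8-fold fall (log2 -0.85, SE 0.093, adjusted p = 2.44e-05). Its paralog Scd1 (chr19:44394455-44407879) was low, with 0, 0 and 8 reads in KO under DMXAA, 5, 4 and 5 in KO under DMSO, 15, 9 and 19 in WT under DMXAA and 66, 48 and 39 in WT under DMSO. It was called lower under DMXAA in WT (log2 -1.48, SE 0.36, adjusted p = 0.00513) and was too low to be tested in KO. Scd1 reads came to 0 to 18.2% of Scd2 reads in KO under DMXAA, 1.4 to 2.4% in KO under DMSO, 3.45 to 7.57% in WT under DMXAA and 7.28 to 11.1% in WT under DMSO, so the 2 genes did not keep a fixed ratio. How reads common to both paralogs were assigned is not stated.

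The KO and WT responses, which share no library, resembled each other across genes. Across the 32 members with a test in each genotype, Pearson's r of the log2 changes was 0.94 and Spearman's rho 0.956, with 31 of the same sign; genes are not independent replicates, and no p is given. Over the 18 sterol enzymes r was 0.963, and over 9 fatty acid enzymes it was 0.925. Acly, with log2 changes of 0.01 in KO and -0.01 in WT, was the member of unlike sign.

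The promoters of some members that fell or rose are given here as a description of sequence. SREBPs are known to bind beside NF-Y, a factor that recognises CCAAT, so 250 bases upstream of each start were searched on both strands for CCAAT, for the sterol regulatory element type TCACNCCAC and for the E-box CACGTG; overlapping matches were allowed. The RefSeq promoters (GRCm38.p6, the mm10 assembly with patches) held 32 entries for 26 of the 33 members, and none was used for Fdft1, Sqle, Fdps, Fads1, Scd1, Scd2 and Stard4. CCAAT was found for 14 of 15 sterol enzyme genes and 3 of 7 fatty acid enzyme genes. Counted over promoters, that was 77.8% and 42.9%, against 33.8% of all 32851 promoters and 35.6% of those of tested genes. TCACNCCAC was in 1 of the 32 promoters, that of Hmgcs1 (1.05% of all promoters), and CACGTG in 6 of 32 (18.8%, against 6.02% of all and 8.29% of tested genes).

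The 5 sequences run 5′ to 3′ toward the start, with matches to CCAAT on either strand and to TCACNCCAC in capitals. Hmgcs1 (chr13:119690101-119690350, plus strand) fell in both genotypes and holds 3 CCAAT matches and the TCACNCCAC match. Mvk (chr5:114444019-114444268, plus strand) did not fall and holds 5, the most of any member promoter. Fasn (chr11:120824548-120824797, minus strand) fell and holds 3, of which a pair shares bases. Acss2 (chr2:155517793-155518042, plus strand) rose and holds 1. Fads2 (chr19:10101504-10101753, minus strand) had a large fall in both genotypes and holds none of the 3 motifs in this window.
Hmgcs1: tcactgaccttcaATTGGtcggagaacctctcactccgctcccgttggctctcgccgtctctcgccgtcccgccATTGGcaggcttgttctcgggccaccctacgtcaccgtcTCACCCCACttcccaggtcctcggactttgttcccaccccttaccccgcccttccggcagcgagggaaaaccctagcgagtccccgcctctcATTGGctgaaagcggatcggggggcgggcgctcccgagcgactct
Mvk: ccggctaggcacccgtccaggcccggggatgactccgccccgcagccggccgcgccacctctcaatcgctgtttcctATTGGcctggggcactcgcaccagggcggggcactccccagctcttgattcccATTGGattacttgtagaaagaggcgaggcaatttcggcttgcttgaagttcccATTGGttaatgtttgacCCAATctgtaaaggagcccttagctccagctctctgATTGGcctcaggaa
Fasn: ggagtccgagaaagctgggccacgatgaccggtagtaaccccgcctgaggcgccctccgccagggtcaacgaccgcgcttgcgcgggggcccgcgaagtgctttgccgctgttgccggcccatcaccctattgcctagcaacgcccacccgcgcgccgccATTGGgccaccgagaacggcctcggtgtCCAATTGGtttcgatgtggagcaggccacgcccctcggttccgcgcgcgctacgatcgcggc
Acss2: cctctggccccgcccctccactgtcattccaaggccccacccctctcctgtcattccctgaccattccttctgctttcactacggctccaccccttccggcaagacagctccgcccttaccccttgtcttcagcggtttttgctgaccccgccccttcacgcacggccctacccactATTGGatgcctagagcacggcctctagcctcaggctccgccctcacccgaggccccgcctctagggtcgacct
Fads2: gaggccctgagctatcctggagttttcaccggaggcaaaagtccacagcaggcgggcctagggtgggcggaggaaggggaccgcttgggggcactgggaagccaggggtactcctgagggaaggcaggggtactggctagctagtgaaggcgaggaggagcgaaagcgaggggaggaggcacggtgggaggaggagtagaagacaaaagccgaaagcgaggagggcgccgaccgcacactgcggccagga
A match is a description of letters and not a binding site. The 5 promoters shown are examples, and 7 members, among them Sqle and Stard4, had no entry to search. A relation between the number of matches and the response over the members was not tested.

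KO macrophages had lower levels of several members than WT macrophages under both treatments. Under DMXAA 10 of 32 tested members were called lower and 2 higher, where 10.8% of 12499 tested genes were lower and 10.7% higher (21.5% called). Under DMSO 10 of 33 were lower and 2 higher, where 9.58% of 12814 tested genes were lower and 7.04% higher (16.6% called). The median log2 difference of KO over WT was -0.23 over the members and 0.00 over all genes under DMXAA, and -0.18 and 0.01 under DMSO. KO libraries lay below all WT libraries for 17 members under DMXAA (18.5% of all genes) and for 14 under DMSO (17.6%).

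Sterol enzymes carried 5 lower and 1 higher call in each comparison. Idi1 had 182, 151 and 179.7 in KO libraries under DMXAA, against 270.3, 283 and 205 in WT libraries under DMXAA (log2 -0.55, SE 0.15, adjusted p = 0.0244), and 505, 453 and 449 in KO libraries under DMSO, against 658, 793 and 623 in WT libraries under DMSO (log2 -0.55, SE 0.11, adjusted p = 0.00548). Sqle had 260.2, 274 and 250.2 in KO libraries under DMXAA, against 364, 360.0 and 411 in WT libraries under DMXAA (log2 -0.53, SE 0.1, adjusted p = 0.0041), and was lower under DMSO as well (log2 -0.35, adjusted p = 0.0197). Fdps had 1899, 2004 and 1826 in KO libraries under DMSO, against 2792, 2906 and 2355 in WT libraries under DMSO (log2 -0.49, SE 0.085, adjusted p = 0.00252), and was lower under DMXAA (log2 -0.43, adjusted p = 0.0172). Hmgcs1 (-0.23) and Pmvk (-0.32) made up the lower calls under DMXAA, and Cyp51 (-0.39) and Msmo1 (-0.27) those under DMSO. Idi1 under DMXAA was no longer called without KO replicate 2, WT replicate 1 or WT replicate 2, at log2 -0.46 to -0.50. Leaving out 1 library left 3 to 6 sterol enzymes called under each treatment. The count was 3 under DMXAA without KO replicate 2, WT replicate 1 or WT replicate 2, and 3 under DMSO without WT replicate 2.

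Fdft1 was the sterol enzyme called higher in KO. It had 3959, 4092 and 3746 in KO libraries under DMXAA, against 2334, 2266 and 2360.3 in WT libraries under DMXAA (log2 0.76, SE 0.052, adjusted p = 5.76e-06), and 10539.5, 10961 and 11724 in KO libraries under DMSO, against 9154, 7971 and 7745 in WT libraries under DMSO (log2 0.42, SE 0.071, adjusted p = 0.00198). No KO library overlapped a WT library under either treatment. Ctsb, which overlaps its exons, was higher in KO by 0.16 under DMXAA (adjusted p = 0.00559) and differed by -0.04 under DMSO (adjusted p = 0.634). Insig1 was the regulator called lower, with 604, 547 and 625 in KO libraries under DMXAA, against 688, 773 and 703 in WT libraries under DMXAA (log2 -0.29, SE 0.085, adjusted p = 0.0354), and 1265, 1200.3 and 1236 in KO libraries under DMSO, against 1431, 1826 and 1584 in WT libraries under DMSO (log2 -0.38, SE 0.091, adjusted p = 0.0149). The call under DMXAA was lost with the replicate number as a block (adjusted p = 0.0648), with no filter on low values and without any 1 of 5 libraries (all but KO replicate 3), at log2 -0.23 to -0.32. That under DMSO was lost without KO replicate 2 (-0.36) or WT replicate 2 (-0.29).

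**Figure D4:**
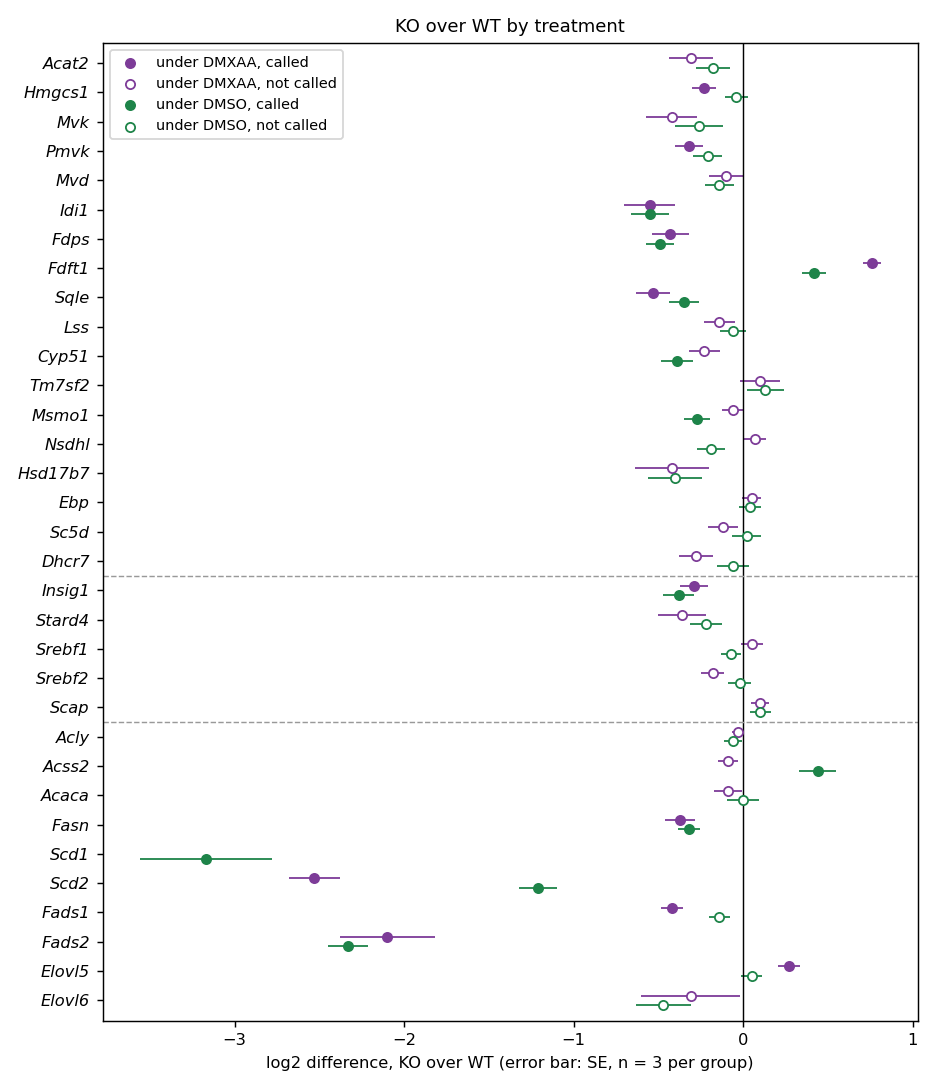
log2 difference of each member, KO over WT, under DMXAA (purple) and under DMSO (green), with its SE (n = 3 libraries per group). Filled points were called and open points were not; dashed lines separate the arms. Most points lie near 0 or to its left, Scd2 (-2.53 under DMXAA and -1.21 under DMSO) and Fads2 (-2.10 and -2.33) lie far left, and Fdft1 lies right of 0 under both treatments.

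Of the tested members, Scd2 and Fads2 differed most between the genotypes under DMXAA, and Scd1, Fads2 and Scd2 under DMSO. Fads2 had 17.9, 12.7 and 14.9 in KO libraries under DMXAA, against 59.2, 75.3 and 69.2 in WT libraries under DMXAA (log2 -2.10, SE 0.28, adjusted p = 4.00e-04), and 119, 101 and 102 in KO libraries under DMSO, against 553, 562 and 508 in WT libraries under DMSO, a 5.02-fold lower level in KO (log2 -2.33, SE 0.12, adjusted p = 1.50e-06). Scd2 had 42.4, 50.6 and 43.7 in KO libraries under DMXAA, against 281, 255 and 267 in WT libraries under DMXAA, a 5.78-fold lower level in KO (log2 -2.53, SE 0.15, adjusted p = 2.73e-06), and 268, 264 and 228 in KO libraries under DMSO, against 559.7, 609.9 and 594 in WT libraries under DMSO (log2 -1.21, SE 0.11, adjusted p = 2.99e-05). Scd1 had 4.87, 3.71 and 5.48 in KO libraries under DMSO, against 62.3, 45.7 and 43.2 in WT libraries under DMSO (log2 -3.17, SE 0.39, adjusted p = 2.49e-04), and was not tested under DMXAA. KO and WT libraries did not overlap for any of these. Scd1, Scd2, Fads1 and Fads2 all lie on chromosome 19, as does Tm7sf2, while Mgmt lies on chromosome 7. Tm7sf2 was called under neither treatment, and Fads1 was not called under DMSO. A relation between position and the genotype differences was not tested.

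Among the other fatty acid enzymes, Fasn was lower in KO under both treatments, by -0.37 under DMXAA and -0.32 under DMSO. Fads1 had 1841, 1731 and 1592 in KO libraries under DMXAA, against 2425, 2221 and 2247 in WT libraries under DMXAA (log2 -0.42, SE 0.067, adjusted p = 0.00142), and its difference of -0.14 under DMSO was not called (adjusted p = 0.144). Elovl5 was called higher in KO under DMXAA, with 2437, 2338 and 2665 in KO libraries under DMXAA, against 1952, 2142 and 2084 in WT libraries under DMXAA (log2 0.27, SE 0.065, adjusted p = 0.0136), and the call was lost without KO replicate 3 (0.21) or WT replicate 1 (0.23). Acss2 was higher in KO under DMSO, with 569, 538 and 526 in KO libraries under DMSO, against 352, 427 and 424 in WT libraries under DMSO (log2 0.44, SE 0.11, adjusted p = 0.0149), a call lost without KO replicate 1 at a log2 difference of 0.41. Under DMXAA it had 1175, 1139 and 1109 in KO libraries under DMXAA, against 1239, 1202 and 1193 in WT libraries under DMXAA, and was not called (log2 -0.09, adjusted p = 0.364).

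Markers of other cells and of division moved with genotype as well. All 10 proliferation genes were lower in KO under DMSO (9.58% of all tested genes). Under DMXAA 9 were lower and 1 higher (10.8% and 10.7% of all tested genes). Their summed normalized count under DMXAA was nonetheless 23900 to 25400 in KO against 22200 to 23800 in WT. Under DMSO the sum was 18100 to 20200 in KO against 34700 to 40600 in WT. The summed normalized count of 9 neutrophil markers was 71.6 to 77.9 in KO against 244 to 277 in WT under DMXAA, and 64.3 to 112 in KO against 488 to 690.0 in WT under DMSO. That of 8 stromal markers was 42.4 to 79.4 in KO against 13.7 to 55.1 in WT under DMXAA, and 123 to 533 in KO against 36.2 to 78.3 in WT under DMSO. That of the 10 macrophage markers was 918000.0 to 928000.0 in KO against 1110000.0 to 1130000.0 in WT under DMXAA, and 1490000.0 to 1600000.0 in KO against 1870000.0 to 1940000.0 in WT under DMSO. Single markers weigh heavily in these sums, with values up to 371000 in WT under DMXAA and 994000 in WT under DMSO. Of the 10, 5 were called lower and 0 higher under each treatment (10.8% of all tested genes lower under DMXAA and 9.58% under DMSO). The part of these shifts in the genotype differences of the lipid genes was not tested.

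Of the 33 members, 3 responded to DMXAA differently in KO and WT by the interaction test. This is near the share over all genes, where 8.6% of 12729 tested were called (5.37% higher and 3.24% lower). Scd2 fell further in KO, with a difference of the responses, KO minus WT, of log2 -1.32, SE 0.16, adjusted p = 1.70e-04. Acss2 rose less in KO (log2 -0.53, SE 0.11, adjusted p = 0.0101). Fdft1 fell less in KO (log2 0.34, SE 0.09, adjusted p = 0.0305). The median difference was -0.02 over the members and 0.00 over all genes. For the other 30 members the difference was not called, which does not show that the responses were alike; their values ran from -0.28 for Fads1 (adjusted p = 0.0733) to 0.31 for Scd1 (SE 1.0).

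The Fdft1 call is the least settled. It was lost with libraries set to the same total, at log2 0.27, and without any of 6 libraries in turn (replicates 1 and 2 of KO under DMXAA, of WT under DMXAA and of KO under DMSO), at 0.30 to 0.34. Ctsb also had a called difference of the responses, at log2 0.20, SE 0.053, adjusted p = 0.028. The KO over WT differences under DMXAA and under DMSO, which share no library, had a Pearson r of 0.872 and a Spearman rho of 0.805 across 32 members, and 28 had the same sign.

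Other sterol genes, listed beside the 18 enzymes, moved in both directions. Of 18 tested, 7 fell and 7 rose in KO, and 6 fell and 7 rose in WT. Over all tested genes 32.9% fell and 33.7% rose in KO, and 31.1% fell and 31.7% rose in WT. Among those that fell was Mbtps1, a protease that cleaves SREBPs, which changed by -0.59 in KO and -0.56 in WT.

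Ch25h, which makes 25-hydroxycholesterol, rose most, with 81.0, 75.1 and 104 in KO libraries under DMXAA, against 2.69, 6.79 and 4.04 in KO libraries under DMSO (log2 4.05, SE 0.38, adjusted p = 5.26e-06), and 97.8, 105 and 111 in WT libraries under DMXAA, against 8.43, 9.33 and 10.9 in WT libraries under DMSO (log2 3.33, SE 0.26, adjusted p = 1.94e-06). Its DMSO libraries were near the level of a few reads, so the size of the rise is imprecise. Npc2, which carries cholesterol out of lysosomes, rose by 1.56 in KO and 1.41 in WT, and Rnf139, a ubiquitin ligase of the endoplasmic reticulum, by 0.77 and 0.98.

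Other fatty acid genes leaned lower, with 13 lower and 7 higher calls among 25 tested in KO and 12 lower and 5 higher in WT. Among all tested genes 32.9% were lower and 33.7% higher in KO, and 31.1% and 31.7% in WT. Elovl7, an elongase, changed by -3.11 in KO and -2.64 in WT, Lpin1, a phosphatidate phosphatase, by -2.19 and -1.88, and Acsl3, an acyl-CoA synthetase, by -1.72 and -1.55. Acsl1, another acyl-CoA synthetase, rose by 1.49 in KO and 1.47 in WT, and Dgat2, which makes triglyceride, by 1.37 and 1.39 at 8.43 to 53.2 normalized counts. G6pdx, a source of the NADPH that synthesis consumes, rose by 0.63 in KO and 0.32 in WT, and Elovl1 by 0.58 and 0.48.

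LXRs are receptors for oxysterols that switch on cholesterol efflux genes and Srebf1. LXR genes gave 5 lower and 2 higher calls of 8 in KO and 4 lower and 2 higher in WT. The shares over all tested genes were 32.9% lower and 33.7% higher in KO, and 31.1% and 31.7% in WT. Apoe, the apolipoprotein of cholesterol efflux, changed by -1.89 in KO and -1.72 in WT, Mylip, a ligase that degrades the LDL receptor, by -0.69 and -0.59, and the transporter Abca1 by -0.59 and -0.53. The transporter Abcg1 rose by 1.60 and 1.61, and Nr1h3, which encodes the receptor LXR alpha, by 1.02 and 1.34. Abca1 and Abcg1, both known LXR targets, changed in opposite directions in each genotype. KO against WT, LXR genes had 5 lower and 0 higher calls of 8 under each treatment, with Nr1h3 at -0.89 under DMXAA and -0.57 under DMSO. The other sterol genes had 2 lower and 4 higher calls of 18 under DMXAA and 1 of each of 17 under DMSO. The other fatty acid genes had 2 lower and 3 higher of 24 under DMXAA and 3 lower and 1 higher of 25 under DMSO. Over all tested genes 10.8% were lower and 10.7% higher under DMXAA (21.5% called). Under DMSO 9.58% were lower and 7.04% higher (16.6% called). The calls among the other fatty acid genes were near these shares.

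At least as many members fell under the other scalings as under the deposited one, while the few rises partly depended on it. Setting libraries to the same total moved the median of all genes by -0.39 in KO and -0.32 in WT and brought higher calls to 20.3% of all calls in KO and 22.4% in WT, against 50.6% and 50.5% as deposited. With the same upper quartile those shares were 34.9% and 32.7%. With the same total, 29 of 32 members fell and 1 rose in KO, and 29 of 33 fell and 1 rose in WT, with Acss2 the one that rose each time. For KO against WT the share of higher calls was 34.3% with the same total against 49.7% as deposited under DMXAA, and 31.2% with the same upper quartile against 42.4% as deposited under DMSO. For the interaction it was 39.2% with the same total against 62.4% as deposited.

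The authors' deposited tables of these comparisons call 30 members in the KO response, 30 in the WT response, 13 for KO against WT under DMXAA and 12 under DMSO. All 29, 30, 12 and 12 members called by limma are among them with the same direction. Mvk is the member that the authors' deposited tables add, in the KO response and in KO against WT under DMXAA.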

How the data were processed

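RNA-seq libraries of 12 macrophage samples were grouped by title into 4 groups of 3. Per the submitters' processing notes, reads were aligned to mm10 with HISAT2 and counted with featureCounts; versions are not given in the sources used here, nor are the strand setting and the treatment of shared reads. The authors deposited 4 tables of 6 libraries with normalized counts, a signal scaled separately in each table. Their deposited comparison tables hold a log2 fold change with its p-value, raw and adjusted. Dividing each library's values by the worth of 1 read gave whole reads for 100% of values (tolerance 0.01). Depth was 79.5 to 98.1 M reads (M, mega) per library.

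Each comparison was fitted with limma 3.58.1 (lmFit, eBayes with trend) within the table that holds both groups, on log2 of the normalized count plus 1, for genes with a mean of at least 10. A fold change on this scale understates the change of low genes. Calls have a two-sided Benjamini-Hochberg adjusted p below 0.05 over all tested genes. For the interaction, the response in WT was subtracted from that in KO in 1 fit over the 12 libraries of the DMSO and DMXAA tables. Alternatives were pseudocounts of 0.5 and 5, no filter or a filter at 50, libraries set to the same total or upper quartile, edgeR 4.0.16 and DESeq2 1.42.0 on the recovered reads, a replicate block, and leaving out each library. On those reads edgeR calls 8475 genes in the KO response, 8003 in the WT response, 2652 for KO against WT under DMXAA, 2127 under DMSO and 1123 in the interaction. The script was tested on simulated data. Gene positions are from GENCODE vM21 (mm10) and levels per length use its exon bases merged over all transcripts of a gene.

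The 33 members and the lists of other sterol, fatty acid, LXR and marker genes were chosen with earlier results of these data known. Named with full statistics are, in each comparison, the 3 called members of each arm with the largest absolute log2 value, called members against their arm's majority, and members called in the interaction; of the other lists, the 3 called genes with the largest change in each direction, except that some genes of these lists are not reported here by name, though the counts include them. Genes described outside this rule were chosen after their values were seen.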

Additional observations from a re-analysis of the deposited data

Results flagged for a closer look

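For 3 members, and for G6pdx and Nr1h3 of the related lists, the response to DMXAA differed between KO and WT in the interaction test of limma (KO response minus WT response, n = 3 libraries per group). Over all genes 8.6% of 12729 tested were called, which is near the share among the 33 members. G6pdx and Nr1h3 are not all the calls of the related lists. Of 18 other sterol genes tested 1 was called lower. Of 25 other fatty acid genes 1 was called lower and 2 higher, and of 8 LXR genes 1 was called lower. Scd2 fell further in KO, by log2 -2.17 against -0.85 in WT (difference -1.32, SE 0.16, adjusted p = 1.70e-04). Acss2 rose by 1.35 in KO and 1.88 in WT (difference -0.53, SE 0.11, adjusted p = 0.0101). Fdft1 fell by 1.21 in KO and by 1.55 in WT (difference 0.34, SE 0.09, adjusted p = 0.0305). G6pdx changed by 0.63 in KO and 0.32 in WT (difference 0.31, SE 0.059, adjusted p = 0.00492). Nr1h3 changed by 1.02 in KO and 1.34 in WT (difference -0.32, SE 0.082, adjusted p = 0.0266).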

How the results depend on the processing

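Over the named members' log2 values under all alternatives, 686 of 732 kept their direction and their side of the threshold, 41 kept the direction and were no longer called, and 5 changed sign. The members were named for being called and mostly for large differences, so this share leaves out weaker calls. For KO against WT, members called went from 12 to 7 under DMXAA without WT replicate 2, and from 12 to 8 under DMSO without WT replicate 2. With the same total, Ebp was at -0.14 in KO and -0.09 in WT, Srebf1 at -0.23 in KO and Nsdhl at -0.03 in WT; with the same upper quartile, Srebf1 was at -0.01 in KO. The sterol enzymes called in the interaction numbered 1 as reported, 0 with the same total (the cause was not tested) and 0 to 1 without 1 library. Without 1 library, sterol enzymes called numbered 16 to 18 in the KO response, 16 to 17 in the WT response and 3 to 6 for KO against WT under either treatment. Fatty acid enzymes called numbered 7 to 8, 9, 4 to 5 under DMXAA, 4 to 5 under DMSO and 2 to 3 in the interaction. All genes called numbered 7832 to 8148 in the KO response, 7337 to 7872 in the WT response, 2005 to 2267 and 1399 to 1899 for KO against WT under DMXAA and DMSO, and 830.0 to 1113 in the interaction. The 1399 was reached without KO under DMSO replicate 1.

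Libraries with the same replicate number had small correlations of their deviations (r -0.0358 to 0.0656), which cannot show whether the numbers pair samples. In the KO response r was 0.0316 to 0.0641 for same-number pairs, above all other pairs (-0.0486 to 0.00636). In the WT response r was -0.0358 to 0.0279 for same-number pairs, within the range of the others (-0.0486 to 0.0479). With the number as a replicate block, 8267 genes were called in the KO response, 7865 in the WT response, 2491 and 1915 for KO against WT under DMXAA and DMSO, and 989 in the interaction, where 0 sterol enzymes were then called. The library names carry Roman numerals that differ from the title numbers for DMSO libraries. DMSO libraries are II to IV and DMXAA libraries I to III, so numerals I and IV have no partner in the other treatment. A block by numeral therefore compares the treatments through numerals II and III only. For libraries of the same numeral r was -0.0342 to 0.0656, with the same limit. With the numeral as a replicate block in place of the number, 7990.0 genes were called in the KO response and 6879 in the WT response, with 18 and 14 sterol enzymes. Depth limits Scd1, Elovl6 and Fads2 most, which held few reads under DMXAA in KO.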
